A study of Mus musculus with 9 samples.

Results

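The genes described here are the expressed long noncoding RNA (lncRNA) genes of mouse basal ganglia after intracerebral hemorrhage (ICH). They are the rows whose first transcript type was lincRNA (a long RNA gene lying between coding genes), lncRNA or antisense (a gene transcribed from the strand opposite to another gene), and whose mean over all 9 libraries was at least 2 FPKM (fragments scaled by transcript length and library size). Of 8868 genes of these types, 184 passed (2.07%), among 55401 genes in the table. Of the 184, 110 were typed lincRNA and 74 antisense. Genes with another first type were left out, also some from the lncRNA role lists described later. Peg13 (first type sense intronic, 74.9 FPKM) and Gas5 (first type retained intron, 19.2 FPKM) are examples. The rule used only the mean level over all libraries and no difference between groups. The members just inside the limit were Gm47814 at 2.056 FPKM, 1810012K08Rik at 2.007 FPKM and 3110056K07Rik at 2.001 FPKM, and the first genes outside it were Gm48420 at 1.996 FPKM, 9530082P21Rik at 1.990 FPKM and Gm16172 at 1.981 FPKM.

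Bulk RNA sequencing was performed on basal ganglia of wild-type mice in 3 groups with 3 libraries each. Sham mice had a needle inserted without blood and were sampled on day 3. ICH mice had whole blood injected, received the vehicle of the Laminaria treatment, and were also sampled on day 3. The third group, written here as Laminaria-treated ICH, received Laminaria after ICH, and its libraries 1, 2 and 3 were labelled day 4, 5 and 6, so treatment and sampling day cannot be told apart. The study's methods describe adult male C57BL mice, the animal's own blood and the right basal ganglia. Whether a library stands for 1 mouse is not in the labels, and p-values cover only the spread among the libraries, which may be technical. They also do not say whether polyadenylated RNA was selected or whether reads were counted by strand.

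Total counts ranged from 51307799 to 74649716 per library. Low counts lay at multiples of about 3.76 to 3.81, which the labels do not explain. If 1 fragment was worth several counts, the depth in fragments was smaller than these totals, but this was not tested. The mitochondrial share was 6.01 to 7.32% of counts. Striatal neuron markers were present in every library (summed level 2560 to 5639 CPM, that is counts scaled to library size), and the B cell marker Ms4a1 was at 0 in all. Summed choroid plexus and ependyma markers, which come from the wall and fluid-producing tissue of the ventricles, ranged from 130 to 1313 CPM in sham, 1857 to 4869 CPM in ICH and 125 to 2402 CPM in Laminaria-treated ICH libraries. Fewer cells of a type and less RNA per cell cannot be told apart in such samples.

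LncRNAs are transcripts that are not known to be translated into large proteins. Some, such as Malat1 and Neat1, stay in the nucleus at speckles and paraspeckles, whereas others mainly serve as the precursors from which microRNAs or small nucleolar RNAs (snoRNAs) are cut. Brain expresses many of them at high levels, among them the maternally expressed RNAs of the imprinted Dlk1-Dio3 region (Meg3, Rian and Mirg) and the host gene of miR-124, a microRNA abundant in neurons.

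In the RefSeq table (GRCm38.p6), 13 members enclosed 55 different mature microRNAs on their own strand, 3 of them in more than 1 host, and Mirg alone enclosed 26. Mir124a-1hg and Mir124-2hg, miR-124 host genes by name, were not among the 13, so this search may have missed hosts. The sequences below belong to hosts whose levels are described later and show which products these host genes carry. The capitals mark the seed (bases 2 to 8), the part that pairs with target RNAs. Mature microRNAs were not measured, so only the level of the host gene is known.
mmu-miR-9-5p: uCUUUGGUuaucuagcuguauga
mmu-miR-29b-3p: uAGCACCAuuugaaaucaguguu
mmu-miR-29c-3p: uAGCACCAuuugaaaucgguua
mmu-miR-138-5p: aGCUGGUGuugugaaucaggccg
mmu-miR-101a-3p: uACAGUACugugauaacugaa
mmu-miR-1906: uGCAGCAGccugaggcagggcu

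MiR-9-5p, a microRNA of neural progenitors and neurons, lay in 2 members, Gm3764 (chr3:88215613-88215635, plus strand) and C130071C03Rik (chr13:83738821-83738843, plus strand). MiR-29b-3p (chr1:195037091-195037113) and miR-29c-3p (chr1:195037600-195037621) share the seed AGCACCA and both lay on the plus strand in A330023F24Rik. MiR-138-5p (chr8:94324312-94324334, plus strand) lay in C78859 and miR-101a-3p (chr4:101346957-101346977, minus strand) in E130102H24Rik. MiR-1906 was placed both in Meg3 (chr12:109544588-109544609, plus strand) and in Gm27000 on chromosome X (chr X, 88759485 to 88759506, minus strand), because Gm27000 is a copy of Meg3 sequence. SnoRNA genes were enclosed by 8 members, among them Rian with 13, Snhg1 with 8 and Snhg12 with 5.

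All 184 members were found in the GENCODE M21 annotation (GRCm38), 171 of them at identical coordinates. Their exonic length ranged from 117 to 24030 bases with a median of 1854 bases, and 52 had a single exon. A protein-coding gene lay on the opposite strand of 78 members, and 65 shared exonic bases with a coding gene, of which 55 were antisense. A near-identical copy, with at least 97% identity over at least 50% of a transcript, was found in another gene for 15 members, so reads of these could have been assigned to either gene. The type in the file did not always match M21: Erdr1 was typed lincRNA in the file but protein-coding in M21.

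Most members were lowly expressed. The median of their mean levels was 3.25 FPKM, 134 were below 5 FPKM, 15 reached 10 FPKM and 1 exceeded 100 FPKM. The most abundant member alone held 13.3% of the members' FPKM, and the first 12 together held 43.2%. Of the 184, 146 had a mean of at least 2 FPKM in every group.

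2900097C17Rik, listed in RefSeq as Norad, an RNA that binds Pumilio proteins (chr2:156388065-156392979, minus strand), was the most abundant. Its levels were 177, 200 and 180 FPKM in sham, 160, 148 and 127 FPKM in ICH, and 175, 156 and 121 FPKM in Laminaria-treated ICH libraries. All ICH libraries were below all sham libraries. Meg3 (chr12:109541001-109571721, plus strand), the imprinted RNA that leads the Dlk1-Dio3 cluster, followed with 95.9, 113 and 89.98 FPKM in sham, 88.1, 94.5 and 71.0 FPKM in ICH, and 116, 93.9 and 104 FPKM in Laminaria-treated ICH. Its groups overlapped. Malat1 (chr19:5795690-5802672, minus strand), the nuclear speckle RNA, had 57.6, 102 and 64.9 FPKM in sham, 61.2, 68.2 and 88.6 FPKM in ICH, and 91.3, 65.4 and 40.7 FPKM in Laminaria-treated ICH. Its spread within each group was larger than any difference between the group means of 74.9, 72.7 and 65.8 FPKM.

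Others of the most abundant members were copies of other genes. Gm10076, at 58.6 FPKM on average, is 384 exonic bases long and matched the ribosomal protein gene Rpl41 over 100% of a transcript, and Gm27000, at 19.1 FPKM, matched Meg3 over 100%. The levels of both therefore remained uncertain. Next in order were Mir124a-1hg (a miR-124 host gene, 26.7 FPKM), Oip5os1 (also named Cyrano, known for directing the decay of miR-7, 21.5 FPKM), Snhg8 (a snoRNA host gene, 14.6 FPKM), Erdr1 (13.5 FPKM), Miat (a nuclear RNA of neurons, 13.2 FPKM), and the antisense genes 4933431E20Rik (12.9 FPKM) and B230334C09Rik (12.7 FPKM).

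**Figure D1:**
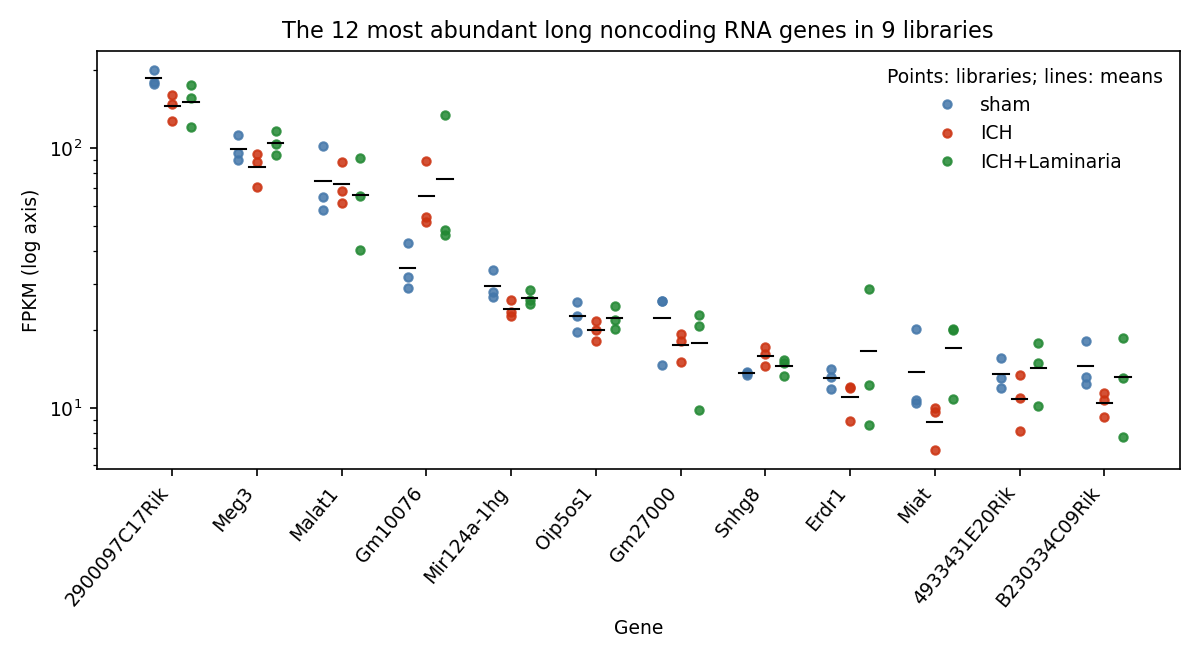
FPKM of the 12 most abundant members on a log axis. Each point is a library, coloured by group, and short lines are group means. 2900097C17Rik stands above Meg3 and Malat1, its ICH libraries lie below its sham libraries, and the points of Gm10076 spread from 28.8 to 134 FPKM.

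Members held 0.339 to 0.445% of all FPKM in a library. The share was 0.406% ± 0.0346 (SD, n = 3) in sham, 0.353% ± 0.0127 in ICH and 0.390% ± 0.0258 in Laminaria-treated ICH libraries. By this measure the ICH libraries lay below all libraries of both other groups. By share of counts the groups overlapped, with ICH library 2 at 0.681%, above sham library 3 (0.666%) and Laminaria-treated libraries 2 (0.675%) and 3 (0.671%). For the FPKM share the two-sided exact permutation p was 0.10 for ICH against sham, which is the smallest that 3 against 3 libraries allow, 0.10 for Laminaria-treated ICH against ICH and 0.60 for Laminaria-treated ICH against sham (0.15, 0.15 and 0.60 after Benjamini-Hochberg adjustment over these 3 comparisons).

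The comparison of ICH with sham asks which lncRNA genes differ 3 days after the hemorrhage. AU020206, Neat1 and Brip1os rose, whereas Gm49654 and Gm39043 fell. These 5 were called by edgeR's quasi-likelihood test at a Benjamini-Hochberg adjusted p below 0.05 over all 16414 genes tested. They were 2.72% of the 184 members, against 10.6% called among all genes tested (7.42% higher and 3.16% lower). Among the 9271 protein-coding genes at 2 FPKM or more the share was 12.2%. At an unadjusted p below 0.05 there were 39 members (21.2%, against 29.5% of all genes).

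AU020206 (chr7:75769038-75782099, minus strand) is a lincRNA gene whose nearest coding gene is Akap13, 14429 bases away. Its levels were 5.39, 4.75 and 8.18 CPM in sham, 18.9, 42.7 and 38.7 CPM in ICH, and 26.3, 19.9 and 37.8 CPM in Laminaria-treated ICH libraries. Every library of both hemorrhage groups was above every sham library. The level rose 5.47-fold from sham to ICH (log2 fold change 2.45 ± 0.36 SE, edgeR adjusted p = 0.0226). Akap13 itself had a log2 fold change of 0.30 ± 0.16 SE and did not pass (adjusted p = 0.272).

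The promoter of AU020206 is shown because this member had the largest difference among those called. It spans 250 bases before to 50 bases after the RefSeq start (GRCm38.p6, chr7:75782071-75782370, minus strand), and capitals mark matches to the GC box GGGCGG and to the CCAAT box on the opposite strand.
AU020206: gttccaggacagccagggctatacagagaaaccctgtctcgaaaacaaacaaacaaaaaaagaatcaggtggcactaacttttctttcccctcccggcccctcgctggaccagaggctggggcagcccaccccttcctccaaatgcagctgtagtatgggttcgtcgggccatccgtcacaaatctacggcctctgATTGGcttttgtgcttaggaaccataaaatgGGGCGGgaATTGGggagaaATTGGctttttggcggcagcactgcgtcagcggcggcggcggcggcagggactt

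Both motifs were searched on both strands, and neither overlapped the other here. Among all 32851 RefSeq promoters of this length, 35.7% held GGGCGG and 37.4% held CCAAT, so both are common. Among 89 promoters of 78 members, 38.2% and 42.7% held them. No match was found in this window to AP-1 (TGANTCA, in 7.81% of all promoters), the interferon-stimulated response element (3.44%), the cyclic AMP response element (TGACGTCA, 1.79%), the TATA box (TATAAA, 13.6%) or the E-box (CACGTG, 7.15%).

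Neat1 (chr19:5824708-5845478, minus strand) is the RNA on which paraspeckles are built, and Malat1 is its neighbour on chromosome 19. Neat1 had 94.2, 121 and 90.03 CPM in sham, 165, 280 and 194 CPM in ICH, and 194, 171 and 318 CPM in Laminaria-treated ICH libraries. No sham library reached the lowest hemorrhage library. The level rose 2.10-fold from sham to ICH (log2 fold change 1.07 ± 0.21 SE, edgeR adjusted p = 0.0303), and Malat1 gave -0.08 ± 0.24 SE (adjusted p = 0.859). The nearest coding gene, Frmd8, also rose (log2 fold change 0.63 ± 0.14 SE, adjusted p = 0.0396).

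Brip1os (chr11:86201370-86304443, plus strand) is an antisense gene that overlaps Ints2 and Med13, and 20.2% of its exonic bases lie in exons of coding genes. It had 19.3, 22.5 and 17.7 CPM in sham, 26.1, 43.4 and 40.1 CPM in ICH, and 23.5, 23.9 and 39.9 CPM in Laminaria-treated ICH libraries. The hemorrhage libraries were all above the sham libraries, by little in ICH library 1 and Laminaria-treated libraries 1 and 2. Brip1os rose 1.84-fold from sham to ICH (log2 fold change 0.88 ± 0.20 SE, edgeR adjusted p = 0.0406), and Med13 was not called (log2 fold change -0.16 ± 0.11 SE, adjusted p = 0.394). Of the 5 called members it alone lost its call when other tests, scalings, filters or models were applied with no library left out, in 5 of 11 such alternatives (adjusted p 0.0523 to 0.0653).

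Gm49654 (chr12:81717830-81720052, minus strand) is a lincRNA gene with a single exon, 958 bases from Map3k9. It had 15.4, 14.6 and 13.7 CPM in sham, 8.77, 8.46 and 7.73 CPM in ICH, and 12.9, 11.8 and 10.4 CPM in Laminaria-treated ICH libraries. The 3 groups did not overlap. The log2 fold change of ICH over sham was -0.80 ± 0.13 SE (edgeR adjusted p = 0.0226). For Map3k9, a kinase gene expressed in neurons, the value was -0.60 ± 0.20 SE (adjusted p = 0.102, not called).

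Gm39043 (chr7:83814707-83838345, plus strand) is a lincRNA gene 19827 bases from Cfap161. It had 6.95, 10.7 and 11.3 CPM in sham, 3.64, 4.12 and 4.38 CPM in ICH, and 8.78, 6.51 and 3.73 CPM in Laminaria-treated ICH libraries. The ICH libraries lay close together and below sham, and the Laminaria-treated libraries reached into both groups. The log2 fold change of ICH over sham was -1.25 ± 0.23 SE (edgeR adjusted p = 0.0275).

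Cell type markers moved between the same groups. Of 12 microglia and macrophage markers, 10 rose from sham to ICH, with summed levels of 311 to 507 CPM in sham, 964 to 2062 CPM in ICH and 788 to 1827 CPM in Laminaria-treated ICH. ICH library 1 and Laminaria-treated libraries 1 and 2 had the lower sums, and the same libraries had the lower levels of AU020206, Neat1 and Brip1os within their groups. Of 10 astrocyte markers 5 rose (3956 to 4833 CPM in sham and 6694 to 10660 CPM in ICH), and of 10 neuron markers 2 fell (5159 to 5822 CPM and 3327 to 4644 CPM). Of 9 tested markers of dividing cells 6 rose (11.2 to 41.3 CPM in sham and 71.3 to 257 CPM in ICH), of 6 tested monocyte and neutrophil markers 3 rose (3.77 to 6.08 CPM and 21.7 to 164 CPM), and of 8 endothelium and pericyte markers 4 rose (277 to 324 CPM and 374 to 443 CPM). ICH library 1 had the lowest sum of its group for these 3 lists and for the astrocyte markers. No marker of these lists was at 0 in all libraries. The part of cell composition in the differences of the 5 members was not tested.

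**Figure D2:**
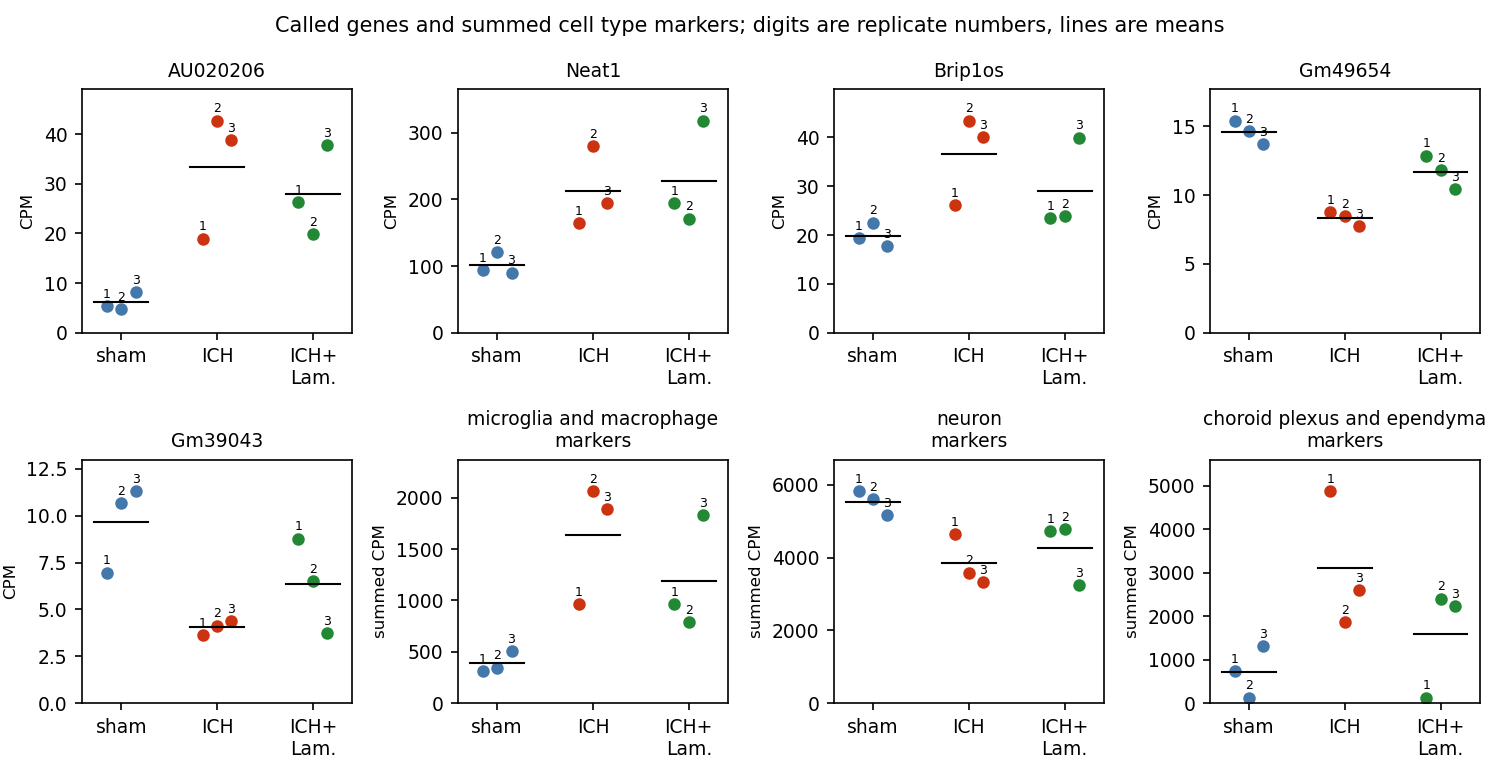
CPM of the 5 called lncRNA genes and summed CPM of 3 marker lists by group; points are libraries with their replicate number, and lines are group means. AU020206 lies at 4.75 to 8.18 CPM in sham and 18.9 to 42.7 CPM in ICH, and ICH library 1 is the lowest ICH library for AU020206, Neat1, Brip1os and the microglia and macrophage markers.

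The calls depended on single libraries. Leaving out sham library 1, sham library 2, ICH library 2 or ICH library 3 left no called member. Without sham library 3 only AU020206 was called. Without ICH library 1 there were 12 (5 higher and 7 lower), including all 5 called above. The shares of all genes called in these fits are not given here. Changes particular to the members therefore cannot be told apart from changes over all genes. The log2 fold changes in these 6 fits were 2.23 to 2.73 for AU020206, 0.807 to 1.22 for Neat1, 0.725 to 1.07 for Brip1os, -0.854 to -0.762 for Gm49654 and -1.44 to -1.11 for Gm39043. DESeq2 called 26 members (14.1% against 21.6% of all genes), including all 5. Of these, 8 were higher and 18 lower (4.35% and 9.78%, against 12.5% and 9.11% of all genes).

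Beyond the called genes, members lay slightly lower in ICH. The median log2 fold change of the 184 was -0.14, against 0.01 over all genes tested and -0.03 over protein-coding genes at 2 FPKM or more. It was below 0 in 117 members (63.6%), against 48.6% of all genes and 53.2% of those protein-coding genes. The median was -0.18 in lincRNA and -0.12 in antisense members. The groups did not overlap in 50 members (27.2%, against 36.3% of all genes), 14 higher and 36 lower in ICH (7.61% and 19.6%, against 19.5% and 16.8% of all genes). Among protein-coding genes at 2 FPKM or more, 18.5% were higher and 22% lower without overlap. The share of members lower without overlap was thus not above that of these coding genes, and the share higher was smaller.

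**Figure D3:**
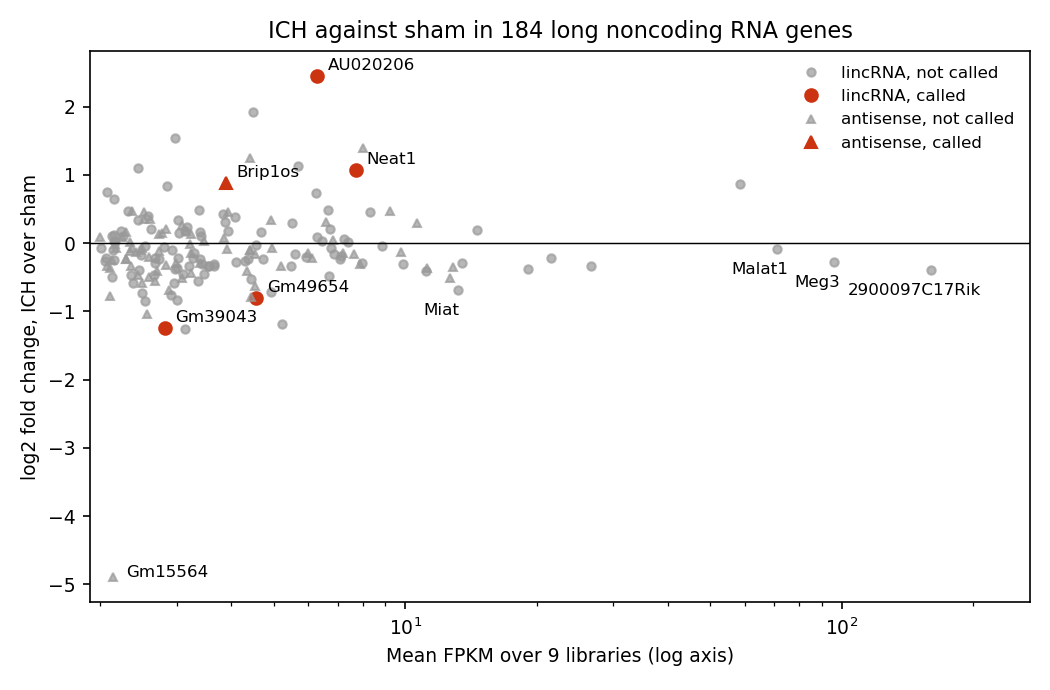
Log2 fold change of ICH over sham against the mean FPKM (log axis) of the 184 lncRNA genes; circles are lincRNA, triangles antisense, and red marks the 5 called genes. Most points lie between -0.5 and 0.5 with more below 0 than above, and Gm15564, whose ICH libraries held 0 to 0.25 CPM, lies apart at the bottom.

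Members close to the threshold included abundant ones. Rian (chr12:109603808-109661716, plus strand), the snoRNA and microRNA host of the Dlk1-Dio3 region, had 475, 480 and 466 CPM in sham, 402, 358 and 341 CPM in ICH, and 397, 411 and 337 CPM in Laminaria-treated ICH libraries. The sham libraries lay close together and above all others, and the difference was not called (log2 fold change -0.36 ± 0.09 SE, edgeR adjusted p = 0.0559). For 2900097C17Rik it was -0.39 ± 0.11 SE (adjusted p = 0.0742). Gm27177, chosen for naming after its values were seen, had -0.50 ± 0.13 SE (adjusted p = 0.0582) and is a copy of Gm16867 over 100% of a transcript. Gm16867, which is no member, was called lower (log2 fold change -0.46, edgeR adjusted p = 0.0448), and reads could have been assigned to either gene.

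Gm10076 had 12.9, 19.3 and 14.1 CPM in sham and 38.2, 22.5 and 23.5 CPM in ICH libraries (log2 fold change 0.87 ± 0.26 SE, adjusted p = 0.0787). For the copied gene Rpl41 it was 0.44 (adjusted p = 0.0554). Gm7292 is the copy of 2900097C17Rik and is itself a member. It had 14.4 to 19.1 CPM in 2 sham libraries and 12.2 CPM in the third, and 13.0, 37.4 and 13.1 CPM in ICH libraries.

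By role, the nuclear body RNAs differed from each other. Of Malat1, Neat1 and Miat, 1 rose (Neat1) and none fell. Miat (chr5:112213228-112229395, minus strand) had 218, 116 and 112 CPM in sham, 103, 101 and 72.4 CPM in ICH, and 212, 114 and 204 CPM in Laminaria-treated ICH libraries. All ICH libraries were below the other 6, but sham library 1 stood apart from the other sham libraries, and the log2 fold change of ICH over sham was -0.68 ± 0.29 SE (adjusted p = 0.174).

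The 3 measured members of the Dlk1-Dio3 cluster did not pass the test, and their log2 fold changes were -0.27 for Meg3, -0.36 for Rian and -0.29 for Mirg, the host of 26 mature microRNAs. The median was -0.29 against 0.01 over all genes. The summed level of the cluster was 2360 to 2871 CPM in sham, 1812 to 2313 CPM in ICH and 2343 to 2809 CPM in Laminaria-treated ICH libraries. Sham and ICH did not overlap in this sum, which is made up mostly of Meg3.

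None of the 8 members on the snoRNA host list was called, and none of all 20 tested genes of that list. Of the 8, 7 had a log2 fold change above 0 in ICH, from 0.04 for Snhg12 to 0.45 for Epb41l4aos, with Snhg1 at 0.40, Snhg6 and Zfas1 at 0.29, Snhg8 at 0.19 and Snhg20 at 0.18, and Rian was the exception. Snhg8 was the most even of all members above 10 FPKM, with 13.6, 13.5 and 13.2 CPM in sham and 13.7, 16.5 and 15.6 CPM in ICH libraries. Snhg12 and Snhg20 turned below 0 when ICH library 2 was left out.

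None of the 4 members on the microRNA host list was called. Mir124a-1hg (chr14:64587331-64593961, plus strand) had 150, 189 and 154 CPM in sham, 139, 127 and 123 CPM in ICH, and 156, 141 and 131 CPM in Laminaria-treated ICH libraries. Its ICH libraries were below all sham libraries (log2 fold change -0.33 ± 0.11 SE, adjusted p = 0.110). Mir124-2hg, another miR-124 host, varied more (29.6 to 56.3 CPM in sham and 26.0 to 49.0 CPM in ICH), and its log2 fold change was -0.20.

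The 2 hosts of miR-9-5p had log2 fold changes of -0.06 for Gm3764 and -0.23 for C130071C03Rik. Gm3764 was nearly level, with 43.0 to 45.03 CPM in sham and 39.9 to 44.7 CPM in ICH libraries. A330023F24Rik, the host of miR-29b-3p and miR-29c-3p, had 113, 125 and 113 CPM in sham and 92.9, 109 and 80.7 CPM in ICH libraries (log2 fold change -0.31 ± 0.12 SE, adjusted p = 0.143). C78859, which holds miR-138-5p, had -0.29, and E130102H24Rik, which holds miR-101a-3p, had -0.45. None of these hosts was called, and all but C130071C03Rik were chosen for naming after their values were seen. H19, the imprinted host of miR-675, did rise (log2 fold change 3.25 ± 0.70 SE, adjusted p = 0.0368) but is no member, because its mean was 0.96 FPKM.

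All 6 members on the neural development list had log2 fold changes below 0 in ICH, from -0.68 for Miat to -0.05 for Pantr1, an RNA next to Pou3f3, and none was called. Some of the 6, such as Meg3 and Miat, are also on other lists. The median was -0.30 over the 6 and -0.19 over all 12 tested genes of the list. Of the other tested genes, Lhx1os, Pantr2 and Rmst were below 0, and Six3os1 (0.15), Sox2ot (0.06) and Mir9-3hg (0.002) were above. Dlx6os1, also known as Evf2 and expressed in GABAergic neurons, had 10.8, 25.2 and 17.8 CPM in sham and 11.1, 11.5 and 15.3 CPM in ICH libraries (log2 fold change -0.50). Striatal neuron markers summed to 3698 to 5639 CPM in sham and 2690 to 3993 CPM in ICH libraries, and their part in these values was not tested. Oip5os1 had a log2 fold change of -0.22.

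Ftx, an X-linked RNA near Xist, had 30.3 to 34.8 CPM in sham and 33.3 to 39.7 CPM in ICH libraries (log2 fold change 0.15). AW112010, an RNA of mouse myeloid and T cells that has been found to be translated, was the only member on the immune list. It had 3.85, 2.09 and 1.80 CPM in sham, 2.05, 4.03 and 4.29 CPM in ICH, and 4.65, 3.52 and 5.13 CPM in Laminaria-treated ICH libraries (log2 fold change of ICH over sham 0.42, adjusted p = 0.535). The groups overlapped through sham library 1. Of the 2 tested genes on the immune list 1 rose, AI506816 (log2 fold change 2.10 ± 0.33 SE, edgeR adjusted p = 0.0226). AI506816 is no member, because its first transcript type was processed transcript.

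Members were next compared with the coding genes they overlap. Of 82 members that overlapped a coding gene (67 antisense and 15 lincRNA), 70 had a tested partner. The log2 fold changes of ICH over sham had the same sign in 45 of the 70 pairs, and across pairs Pearson's r was 0.19 and Spearman's rho 0.34. These values describe pairs of genes within the same 6 libraries, and where exons overlap, reads of the pair cannot be told apart without strand. In the 56 pairs that share exonic bases 36 had the same sign, r was 0.08 and rho 0.23. In the 14 pairs that overlap without sharing exonic bases 9 had the same sign, r was 0.29 and rho 0.62. Members without overlap but within 10000 bases of a coding gene gave values near those of the 70 pairs. The sign was the same in 32 of 51 pairs, r was 0.23 and rho 0.31. For 35 members more than 10000 bases from their nearest coding gene with both genes tested, the sign was shared in 18 and r was -0.15.

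Of the 70 partners, 9 were called (12.9%, against 12.2% of protein-coding genes at 2 FPKM or more and 10.6% of all genes tested), 3 higher and 6 lower. The pairs of Gm45774 with Mt2 and Gm17494 with Gclm were chosen for naming after their values were seen. Both partners are among the higher ones, and none of the 6 lower partners is described here. Gm45774 lies antisense to Mt2, a metallothionein that binds zinc and copper, with 16.2% of its bases in Mt2 exons. It had 14.2, 10.8 and 13.5 CPM in sham, 14.3, 55.5 and 31.1 CPM in ICH, and 22.9, 19.8 and 34.4 CPM in Laminaria-treated ICH libraries. Mt2 had 138, 111 and 148 CPM in sham, 194, 581 and 360 CPM in ICH, and 276, 232 and 439 CPM in Laminaria-treated ICH libraries. Within the ICH group both genes were lowest in library 1 and highest in library 2. Mt2 was called (log2 fold change 1.51 ± 0.37 SE, adjusted p = 0.0478) and Gm45774 was not (1.39 ± 0.44 SE, adjusted p = 0.0918).

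Gclm, which encodes a subunit of the enzyme that starts glutathione synthesis, rose (log2 fold change 0.54 ± 0.08 SE, edgeR adjusted p = 0.0226). Gm17494 on its opposite strand had a similar log2 fold change of 0.47, but its groups overlapped. It had 113, 56.6 and 90.2 CPM in sham and 84.7, 150 and 126 CPM in ICH libraries. Cd46 overlaps A330023F24Rik, and their log2 fold changes were 1.04 for Cd46 (adjusted p = 0.103) and -0.31 for A330023F24Rik.

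**Figure D4:**
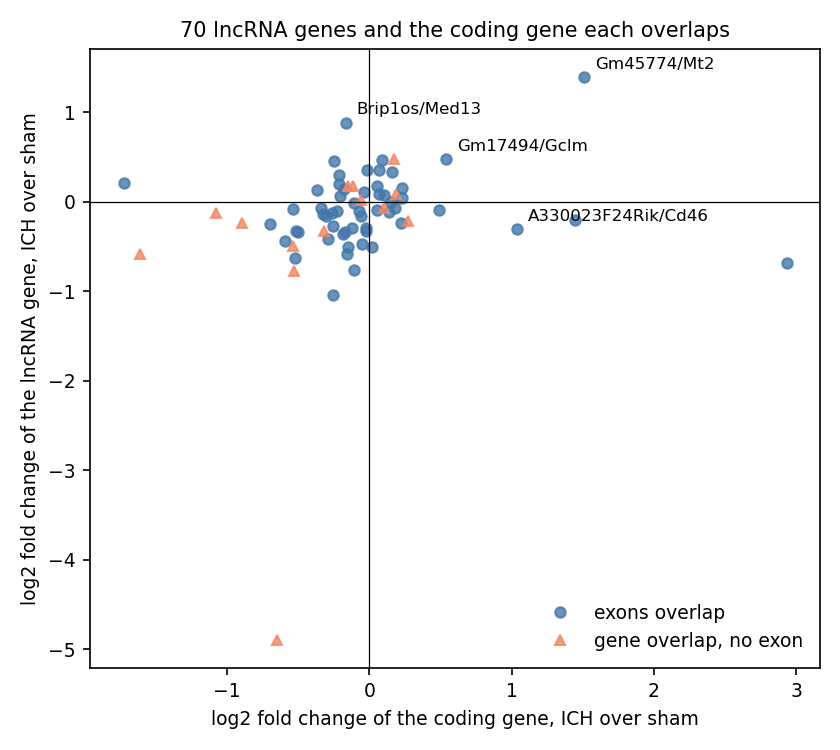
Log2 fold change of ICH over sham in 70 lncRNA genes (vertical axis) against that of the coding gene each overlaps (horizontal axis); circles share exonic bases and triangles do not. Gm45774 and Mt2 lie high together at 1.39 and 1.51, whereas Brip1os lies high at 0.88 with Med13 at -0.16.

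The comparison of Laminaria-treated ICH with ICH asks what differed after the treatment, which cannot be told apart from the later sampling days. No member was called by edgeR, against 0.018% of all genes tested (3 of 16654). At an unadjusted p below 0.05 there were 8 members (4.35%, against 3.36% of all genes), and DESeq2 called 2 (1.09%, against 0.288%). The median log2 fold change of the members was 0.10, against -0.0016 over all genes. It was below 0 in 60 members (32.6%, against 50.3% of all genes). The same ICH libraries serve here and in ICH against sham, so the opposite shifts of the medians are not independent.

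Groups did not overlap in 24 members (13.0%, against 9.02% of all genes), 16 higher and 8 lower with Laminaria (8.70% and 4.35%, against 4.20% and 4.82% of all genes). Gm17494, one of the 2 that DESeq2 called, had 84.7, 150 and 126 CPM in ICH and 63.9, 52.7 and 56.2 CPM in Laminaria-treated ICH libraries (edgeR log2 fold change -1.05 ± 0.21 SE, adjusted p = 0.938). Its transcript holds sequence nearly identical to Ppia over 40.8% of a transcript. The other was Gm15564, with 0.25, 0.04 and 0.00 CPM in ICH, 4.93, 3.88 and 0.71 CPM in Laminaria-treated ICH, and 4.07, 4.34 and 0.00 CPM in sham libraries. In both other groups 1 library was near the ICH level.

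For Miat the log2 fold change was 0.94 ± 0.26 SE (edgeR adjusted p = 0.951). Gm49654 had 0.50 ± 0.15 SE and Meg3 0.31 ± 0.15 SE (both adjusted p = 0.951). AU020206 had -0.25 ± 0.35 SE, Brip1os -0.32 ± 0.27 SE and Gm39043 0.65 ± 0.32 SE, and the libraries of these 3 overlapped between the groups.

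**Figure D5:**
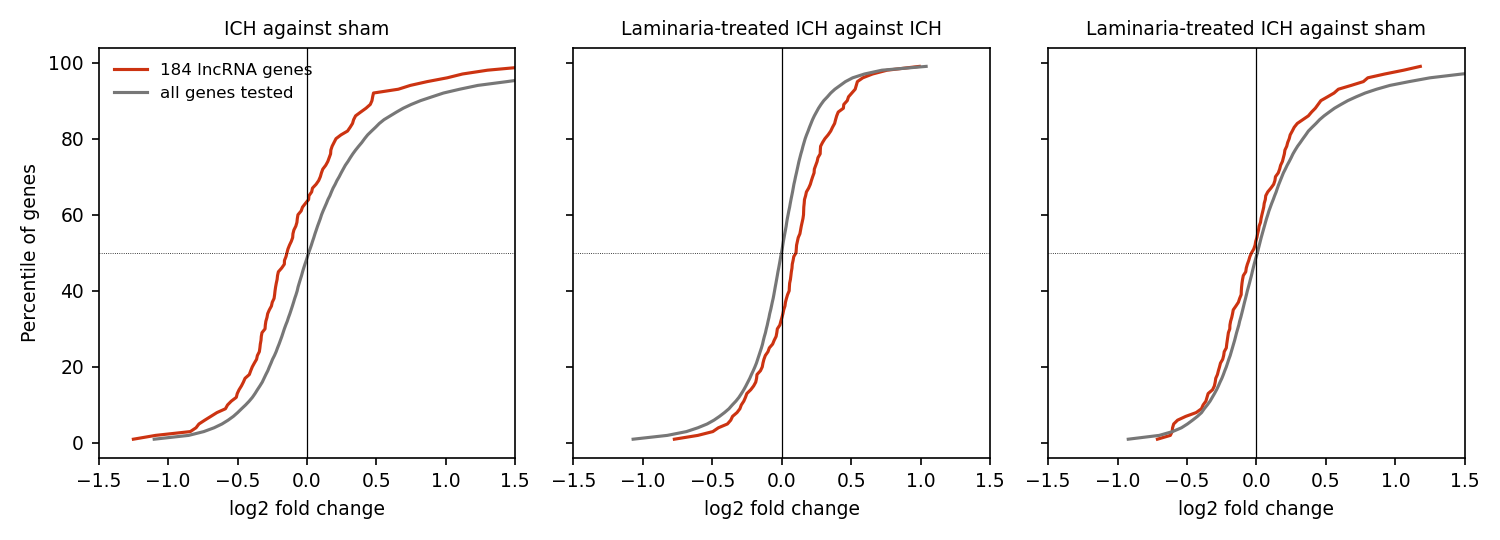
Percentiles of the log2 fold change in the 184 lncRNA genes (red) and all genes tested (grey) for the 3 comparisons; the dotted line marks the median. The lncRNA curve is shifted to the left for ICH against sham (median -0.14 against 0.01), to the right for Laminaria-treated ICH against ICH (0.10 against -0.0016), and close to the grey curve at the median for Laminaria-treated ICH against sham (-0.04 against 0.01). The comparisons share libraries, so these shifts are not independent.

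Laminaria-treated ICH was also compared with sham, which shares libraries with both comparisons above. No member was called by edgeR, against 0.0183% of all genes tested (3 of 16405). At an unadjusted p below 0.05 there were 18 members (9.78%, against 17.9% of all genes), and DESeq2 called 8 (4.35%, against 8% of all genes). The groups did not overlap in 38 members (20.7%, against 27.5% of all genes), 19 in each direction (10.3% each, against 14.9% higher and 12.7% lower among all genes).

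The lowest adjusted p belonged to AU020206, 4.57-fold higher than in sham (log2 fold change 2.19 ± 0.31 SE, edgeR adjusted p = 0.0917). With the replicate number as a block it was called, as the only member. The share of all genes called in that fit is not given here. Same-numbered libraries of these groups correlated at only -0.122, -0.00302 and 0.133, so the numbers were not taken as pairing. Without the block, Neat1 followed with 1.16 ± 0.25 SE (edgeR adjusted p = 0.105), and Gm45774 with 0.999 ± 0.230 SE (edgeR adjusted p = 0.115). Snhg20 had 6.98, 5.39 and 4.75 CPM in sham and 8.04, 9.02 and 10.4 CPM in Laminaria-treated ICH libraries, which did not overlap (log2 fold change 0.68 ± 0.21 SE, adjusted p = 0.174). Among the lower members were Rian at -0.31 ± 0.10 SE (adjusted p = 0.197), Mirg at -0.36 ± 0.14 SE (adjusted p = 0.248) and 2900097C17Rik at -0.35 ± 0.16 SE (adjusted p = 0.310).

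Within groups, members varied to very different degrees. The pooled within-group SD of log2 CPM had a median of 0.25 over members and 0.17 over protein-coding genes at 2 FPKM or more. Among the 15 members above 10 FPKM it was smallest in Snhg8 (0.11), Rian (0.11), Mir124a-1hg (0.14), Oip5os1 (0.17) and Meg3 (0.18). It was largest in B020010K11Rik (1.67), Gm10076 (0.56), Erdr1 (0.52), Malat1 (0.47) and Gm27000 (0.46).

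B020010K11Rik was low in 1 library and high in the others within every group. It had 79.3, 76.0 and 6.92 CPM in sham, 9.46, 66.2 and 46.7 CPM in ICH, and 49.5, 8.68 and 65.6 CPM in Laminaria-treated ICH libraries. It holds sequence nearly identical to the tubulin gene Tuba1b over 44.3% of a transcript, and Tuba1b had 471 to 667 CPM in sham and 589 to 637 CPM in ICH libraries. Erdr1 had 49.3 CPM in Laminaria-treated library 3 and 15.2 to 25.9 CPM in the other 8. It has a near-identical copy, Gm47283, on chromosome Y.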

How the data were processed

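The authors deposited 1 table with counts and FPKM for 9 libraries. Per the submitters' processing notes, reads were handled with HISAT2 2.0.4 and StringTie 1.3.4 after cutadapt 1.9 and FastQC 0.10.1, and a rat build is named there, although the gene IDs are mouse. Counts were used as the authors deposited them. FPKM, listed by the authors as 0.0001 at a count of 0, was set to 0 there. The test was the quasi-likelihood test of edgeR 4.0.16 after TMM scaling, with p-values adjusted by Benjamini-Hochberg over genes that averaged 0.5 FPKM or more in the 6 libraries of a comparison. CPM were TMM-scaled. Alternatives were DESeq2 1.42.0, limma 3.58.1 on log2(FPKM + 1) and log2(FPKM + 0.1), other scalings and filters, a fit of all 9 libraries, a block for the replicate number, counts divided by their step, other limits on members, and each library left out. Added after seeing the data were limma on log2(TPM + 1) and members without copies or shared exons. The fits were tested on simulated data. Copies and overlaps were found in GENCODE M21 with blastn 2.17.0. Genes were named by rule: the 12 most abundant members, up to 10 called in each direction per comparison, members of role lists, those at the limit of 2 FPKM, overlapped coding genes, and the 5 most and least variable above 10 FPKM. Genes outside the rule were named after their values were seen. The members and lists were chosen with earlier results of these data known.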

Additional observations from a re-analysis of the deposited data

How the results depend on the processing

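With 3 libraries a group, the number of called members depended on the test and on single libraries. For ICH against sham, 5 members were called, and 4 to 6 with limma on FPKM, other scalings, other filters, all 9 libraries in 1 fit, counts divided by their step, the replicate number as a block (4), or without copies and shared exons (4). DESeq2 called 26 and limma on log2(TPM + 1) 16. Limiting members to a mean of 5 FPKM left 2, and to 2 FPKM in each group compared 3. Leaving out a library gave 0 to 12. Except for DESeq2, the shares of all genes called under these alternatives are not given here. Whether the changes in number are particular to the members was therefore not assessed. The median log2 fold change was -0.0811 with limma on log2(FPKM + 1) and -0.221 on log2(TPM + 1), and stayed below 0 in every alternative run for this comparison. DESeq2 called 2 members for Laminaria-treated ICH against ICH and 8 against sham, and edgeR and limma called none in any other alternative except 1, AU020206, with the replicate block against sham. Same-numbered libraries did not deviate together in every pair (correlations -0.252 to 0.133), so the numbers were not taken as pairing.

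The members' share was 0.718% of counts in sham, 0.643% in ICH and 0.708% in Laminaria-treated ICH libraries, with overlapping groups, and 0.343%, 0.309% and 0.342% of FPKM without the most abundant member. Of the log2 fold changes of single genes, 11 values turned sign. With limma on log2(TPM + 1), Snhg12 had -0.0657 and Snhg20 -0.0391. With a library left out, ICH over sham ranged from -0.272 to 0.188 for Malat1, -0.071 to 0.138 for Snhg12, -0.458 to 0.405 for Snhg20, -0.473 to 0.0171 for Mir124-2hg and -0.175 to 0.0222 for Pantr1. The alternative without rRNA-like genes was not run, because none of those genes was analysed here.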
